A study of Oryza sativa with 6 samples.

Results

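The genes described here are 6 potassium transporters of the HAK family, HAK1, HAK5, HAK7, HAK10, HAK16 and HAK21, and the potassium channel AKT1, measured by RNA-seq in rice flag leaves. They were picked by gene identifier and make up 7 of the 91180 features in the deposited tables. OsRUS1-OX was a single transgenic line of the rice cultivar ZhongHua11 (ZH-11) that overexpressed OsRUS1 fused to GFP, and WT was untransformed ZH-11. Both were field grown and sampled at the heading stage at 11 h in sunlight, when OsRUS1-OX leaves were rolled and WT leaves were expanded, so genotype and leaf state cannot be told apart. There were 3 libraries per genotype, each made from the leaves of 3 pooled plants.

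HAK transporters move K+ across membranes together with protons and can take it up where little is available, while Shaker channels such as AKT1 let K+ pass along its electrochemical gradient. The family is best known in rice from roots, where HAK1, HAK5 and AKT1 take part in uptake, and members of the family also load, store or redistribute K+ in shoots. In grass leaves K+ is a main osmotic solute of guard cells and of bulliform cells, whose turgor sets how far a blade is rolled.

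The reads counted on genes numbered 11918655 to 13532579 in the OsRUS1-OX libraries and 8759812 to 11744177 in the WT libraries, at which 3 reads equal 0.222 to 0.342 CPM (counts scaled to equal library size), a limit that covers counting error only. OS04G0290800, which the study's tables annotate with the vitamin B6 process tied to RUS genes, had 7313, 3515 and 7577 reads in OsRUS1-OX and 57, 120 and 102 reads in WT, so every library labelled OsRUS1-OX lay above every library labelled WT. The sources do not pair this identifier with OsRUS1 by name, so it is a check of the labels through its annotation only. The tissue label was checked with CAB2R, a chlorophyll a/b-binding protein of leaf chloroplasts, which had 5063 to 6140 FPKM in OsRUS1-OX and 2424 to 2930 FPKM in WT, above 99.9% of the RAP features with reads in both genotypes. WT replicate 2 stood apart, with 742 of 19694 tested features (3.77%) below 0.5 times both other WT libraries, against 0.396% to 1.55% for each of the other 5 libraries. It also had the most features above 2 times both other libraries of its genotype, 505 (2.56%), against 0.213% to 1.47% for the others. On the low side it matters for HAK5 and HAK7, and for the HAK genes HAK22 and OS06G0626050 described below. These are therefore also given without it. For HAK10 and for SUT1, described below, it was the highest WT library.

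Of the 7 genes, 5 had enough reads to be tested with edgeR's quasi-likelihood test. HAK16 and HAK10 rose in OsRUS1-OX, HAK1 fell, and HAK5 and HAK7 did not pass an adjusted p under 0.05. The median log2 fold change of the 5 was 0.38, which is the value of HAK5, against -0.01 over all tested features, and without WT replicate 2 it was -0.05, the value of HAK7 in that fit. HAK21 and AKT1 had too few reads for the test. Over all 19694 tested features, 4644 (23.6%) passed that threshold, 2328 of them (11.8%) higher and 2316 (11.8%) lower in OsRUS1-OX. Groups that do not overlap were common too, with 8360 features (42.4%), so the separation of HAK1, HAK10 and HAK16 between genotypes is not particular to them.

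**Figure D1:**
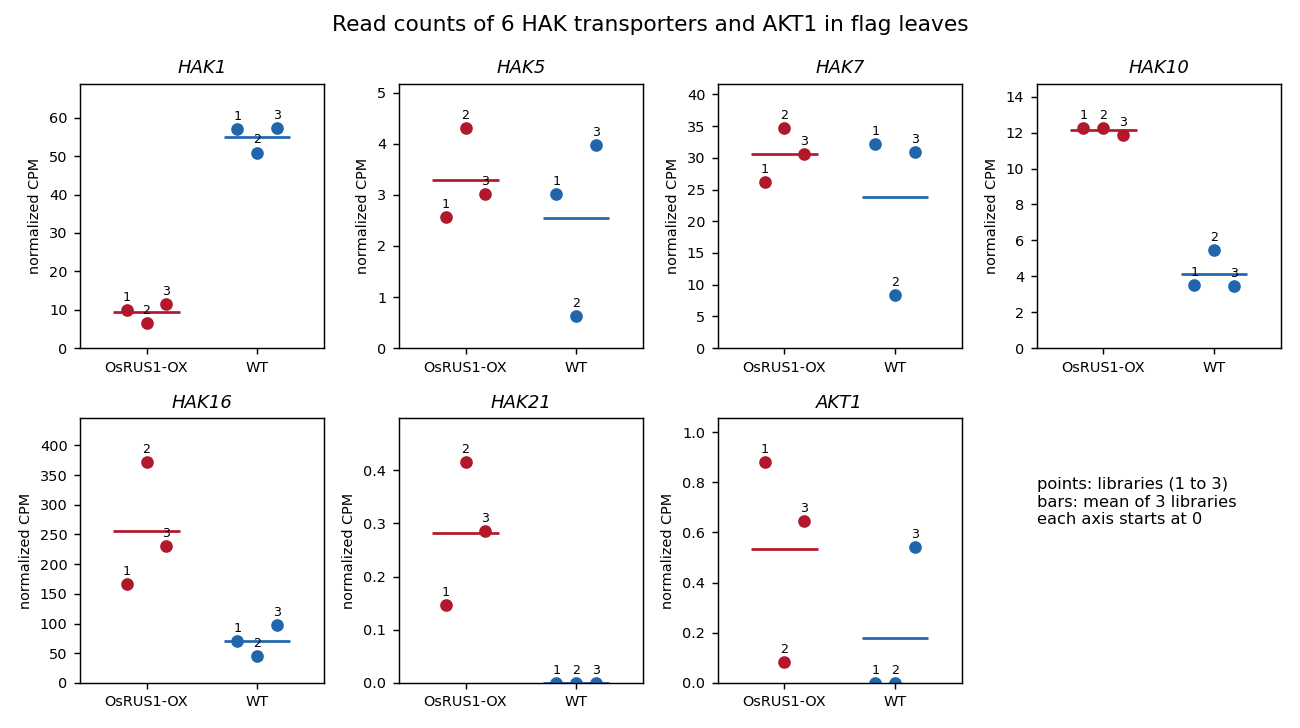
Normalized CPM (counts scaled to library size with TMM) of each gene on its own axis, with OsRUS1-OX libraries in red on the left, WT libraries in blue on the right, and the mean of 3 libraries as a bar. HAK1, HAK10 and HAK16 show no overlap between genotypes, while in HAK5 and HAK7 the WT library numbered 2 lies far below the other points.

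HAK1 (OS04G0401700, chromosome 4) is a high-affinity K+ uptake transporter of the rice root. It had 10.04, 6.55 and 11.5 normalized CPM in OsRUS1-OX, against 57.0, 51.0 and 57.4 in WT. The highest OsRUS1-OX library thus lay far below the lowest WT library, and the 3 WT libraries lay close together. The log2 fold change was -2.55 (SE 0.20, 95% interval -3.02 to -2.08, adjusted p = 0.00035 by edgeR with Benjamini-Hochberg adjustment), so that WT had 5.86 times the OsRUS1-OX level. The decrease was called with each of the 6 libraries left out in turn, at log2 fold changes between -2.72 and -2.35. Scaled to gene length as the deposited FPKM, HAK1 was at 3.48 ± 0.98 in OsRUS1-OX and 19.5 ± 1.88 in WT (SD, n = 3 libraries each). Since these are whole leaves, fewer cells that express a gene and less of its RNA per cell cannot be told apart, here and in all results that follow.

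HAK5 (OS01G0930400, chromosome 1) is a second high-affinity transporter, which in rice also takes part in moving K+ to the shoot. Its reads were few, with 35, 52 and 42 in OsRUS1-OX and 25, 7 and 44 in WT, or 2.56, 4.31 and 3.01 normalized CPM against 3.01, 0.63 and 3.97. The genotypes overlapped, and WT replicate 2 lay below all other libraries. The log2 fold change was 0.38 (SE 0.55, 95% interval -0.89 to 1.65, adjusted p = 0.67 by edgeR), and without WT replicate 2 it was -0.10. The interval covers changes of either sign, and the SE was 0.31 without that library. The 95% interval of HAK1 lay wholly below that of HAK5, but the difference between the fold changes of these uptake transporters was not itself tested.

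HAK16 (OS03G0575200, chromosome 3) is a transporter tied in rice to K+ supply and salt tolerance, and it had the highest mean level per length of the 7 genes in both genotypes. It had 2270, 4477 and 3231 reads in OsRUS1-OX, against 591, 498 and 1082 in WT. After scaling, these were 166, 371 and 231 normalized CPM in OsRUS1-OX and 71.1, 44.6 and 97.7 in WT. All OsRUS1-OX libraries lay above all WT libraries, but the libraries of either genotype differed widely among themselves, with a coefficient of variation of 40.9% in OsRUS1-OX and 37.3% in WT, against medians over the tested features of 11.8% and 18.5%. The log2 fold change was 1.85 (SE 0.36, 95% interval 1.02 to 2.67, adjusted p = 0.0091 by edgeR), a 3.60-fold increase. The increase was called with each library left out in turn, at log2 fold changes of 1.48 (without OsRUS1-OX replicate 2, which had the highest level) to 2.15 (without WT replicate 3). By FPKM, HAK16 stood above 95.4% of the 27962 RAP features with reads in OsRUS1-OX and above 81.0% in WT.

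HAK21 (OS03G0576200, chromosome 3), a plasma membrane transporter of the same family known from salt-stressed rice, was near the limit of detection. It had 2, 5 and 4 reads in OsRUS1-OX and 0 reads in each WT library. Together these were 11 of 38796461 reads in OsRUS1-OX (0.284 CPM) and 0 of 31319685 in WT, which allows up to 0.0958 CPM over the 3 libraries. The filter on low counts left it out, and in a fit without that filter its adjusted p was 0.062. Its reads in OsRUS1-OX amounted to 0.110% of those of HAK16, and whether any were shared with a related gene was not tested.

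HAK10 (OS06G0625900, chromosome 6) has been placed at the vacuolar membrane and belongs to the same branch of the family as HAK7. It had 12.2, 12.3 and 11.9 normalized CPM in OsRUS1-OX, against 3.49, 5.46 and 3.43 in WT. The OsRUS1-OX libraries were nearly equal, with a coefficient of variation of 1.79%, and the WT libraries varied by 28.0%, with replicate 2 the highest. The log2 fold change was 1.55 (SE 0.22, 95% interval 1.03 to 2.06, adjusted p = 0.0029 by edgeR), a 2.92-fold increase. The increase was called in all 6 fits that left out a library, at 1.42 to 1.81 (without WT replicate 2). In FPKM, HAK10 was at 8.01 ± 0.08 in OsRUS1-OX and 2.59 ± 0.67 in WT (SD, n = 3 libraries each).

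Whether the row of HAK10 holds the whole gene is not known. The length that its reads and FPKM imply was 1548 bases, against 2346 to 2904 bases for HAK1, HAK5, HAK16 and HAK21. HAK7 was also short, at 1677 bases, so whether its row holds the whole gene is not known either. Levels per length of HAK7 and HAK10, and the ratios and ranks built on them, carry this limit. A second row, OS06G0626050 with 696 bases, is annotated in the study's tables as nearly identical to HAK10. That row had 49, 66 and 45 reads in OsRUS1-OX and 10, 4 and 18 in WT, with a log2 fold change of 1.94 (SE 0.48, adjusted p = 0.023 by edgeR). It lost its call without OsRUS1-OX replicate 2 (adjusted p = 0.082 by edgeR), OsRUS1-OX replicate 3 (0.052) or WT replicate 1 (0.056). Summed, both rows had 216, 214 and 211 reads in OsRUS1-OX, against 39, 65 and 56 in WT, and the summed reads gave a log2 fold change of 1.64 (adjusted p = 0.00088 by edgeR). How the counting divided reads between these models is not stated in the study's methods.

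HAK7 (OS07G0669700, chromosome 7) had 26.2, 34.7 and 30.6 normalized CPM in OsRUS1-OX, against 32.1, 8.42 and 31.0 in WT. WT replicates 1 and 3 lay within the range of OsRUS1-OX, and WT replicate 2 lay below all others. The log2 fold change was 0.36 (SE 0.42, 95% interval -0.61 to 1.34, adjusted p = 0.59 by edgeR), and it was -0.05 without WT replicate 2. HAK5 and HAK7 shared that low library, and the ratio of HAK7 to HAK5 in FPKM was 14.3, 11.3 and 14.3 in OsRUS1-OX and 14.9, 18.8 and 10.9 in WT. The balance of HAK10 and HAK7 varied between libraries: in FPKM, HAK10 was at 0.505, 0.383 and 0.420 times HAK7 in OsRUS1-OX and at 0.118, 0.703 and 0.120 times HAK7 in WT. The value of 0.703 belongs to WT replicate 2, and the other 2 WT libraries lay below the OsRUS1-OX range.

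AKT1 (OS01G0648000, chromosome 1), the inward K+ channel of the root epidermis, was hardly detected in these leaves. It had 12, 1 and 9 reads in OsRUS1-OX and 0, 0 and 6 in WT. Summed over libraries, these were 22 reads (0.567 CPM) against 6 reads (0.192 CPM). The ranges overlapped, and without the filter on low counts its adjusted p was 0.43 by edgeR and 0.55 by DESeq2. No difference was detectable at this depth.

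**Figure D2:**
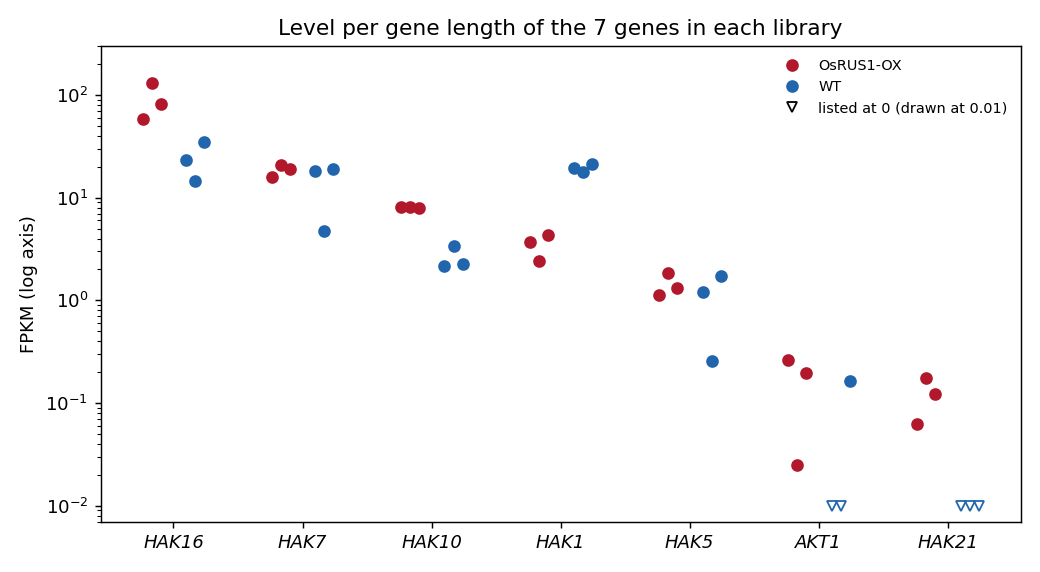
FPKM (read counts scaled to gene length and library size, log axis) of each gene in each library, OsRUS1-OX in red left of WT in blue, with open triangles for libraries listed at 0. Genes are ordered by their mean in OsRUS1-OX, and HAK1 is the gene whose WT points lie above the OsRUS1-OX points.

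Per length, the order of the genes differed between genotypes. In OsRUS1-OX it was HAK16 (90.0 FPKM), HAK7 (18.6), HAK10 (8.01), HAK1 (3.48), HAK5 (1.43), AKT1 (0.162) and HAK21 (0.120), and of these neighbours only AKT1 and HAK21 overlapped over the libraries. In WT it was HAK16 (24.1 FPKM), HAK1 (19.5), HAK7 (14.0), HAK10 (2.59), HAK5 (1.07) and AKT1 (0.0546), with HAK21 listed at 0. The ranges of the first 3 overlapped there, HAK16 with HAK1 and HAK1 with HAK7. Within each WT library, however, HAK7 was below both, with HAK16 at 1.28, 3.06 and 1.82 times HAK7 and HAK1 at 19.6, 17.6 and 21.4 FPKM against 18.2, 4.77 and 18.9 FPKM for HAK7, so that only the order of HAK16 and HAK1 changed between WT libraries. Within libraries, the ratio of HAK16 to HAK1 was 15.7, 53.7 and 19.0 in OsRUS1-OX, against 1.18, 0.830 and 1.61 in WT.

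The summed FPKM of the 6 HAK genes was 87.6, 163 and 115 in OsRUS1-OX and 64.4, 40.6 and 78.7 in WT. HAK16 supplied 66.9%, 79.5% and 71.6% of that sum in OsRUS1-OX, against 36.1%, 36.0% and 43.8% in WT. HAK1 supplied 4.26%, 1.48% and 3.76% in OsRUS1-OX, against 30.5%, 43.4% and 27.1% in WT. Without HAK16 the sums were 29.0, 33.4 and 32.5 FPKM in OsRUS1-OX and 41.2, 26.0 and 44.3 FPKM in WT. They overlapped through WT replicate 2 alone, and the other 2 WT libraries lay above all OsRUS1-OX libraries. Without both HAK16 and HAK1 they were 25.3, 31.0 and 28.2 FPKM in OsRUS1-OX, against 21.5, 8.38 and 22.9 FPKM in WT, with no overlap. HAK16 was called higher and supplied most of the sum in OsRUS1-OX, so leaving it out favours lower sums there. HAK1 was the only gene of the set called lower, so leaving it out favours higher sums in OsRUS1-OX. By normalized CPM, 42.4% of all tested features did not overlap either.

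**Figure D3:**
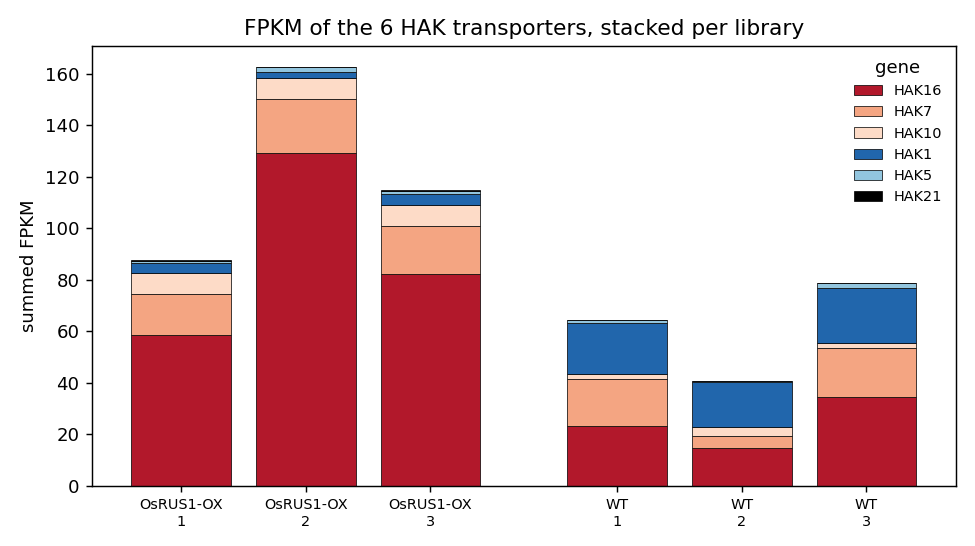
FPKM of the 6 HAK genes stacked for each library, OsRUS1-OX on the left and WT on the right. The HAK16 segment makes up 66.9% to 79.5% of the bar in OsRUS1-OX and 36.0% to 43.8% in WT, and the HAK1 segment is wide only in WT.

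The study's tables of changed genes and of potassium transport name 8 further genes of the HAK family. They were chosen by the study on these same samples, so their counts are not independent evidence of a direction. Of the 8, 4 rose in OsRUS1-OX, 3 fell and 1 did not pass the test. With the HAK genes above, 6 of 13 tested rose and 4 fell, against 11.8% of all tested features higher and 11.8% lower. The median log2 fold change of the 13 was 0.85, and they did not all move one way. Because 8 of them were named by the study on these samples, neither the counts nor the median describe the whole HAK family. These counts, and the ranks that follow, take HAK10 and OS06G0626050 as separate genes, which may count one gene 2 times. The ranks cover only the 14 listed HAK genes, while the RefSeq annotation holds 25 genes with a HAK symbol. Some of the 14 were listed because they changed on these samples, so shifts in rank are partly built in.

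Among those that rose, HAK25 (OS02G0730300) had 434, 581 and 534 reads in OsRUS1-OX, against 120, 141 and 173 in WT, a log2 fold change of 1.47 (SE 0.18, adjusted p = 0.0015 by edgeR). Per length it ranked number 2 of the 14 listed HAK genes in OsRUS1-OX, at 18.8 FPKM, and number 5 in WT, at 6.49 FPKM. HAK24 (OS06G0270200) was lower in level, with 74, 67 and 58 reads against 14, 17 and 21 in WT, and a log2 fold change of 1.56 (SE 0.25, adjusted p = 0.0044 by edgeR). Both were called with any one library left out. HAK19 (OS02G0518600), with 164, 159 and 167 reads in OsRUS1-OX and 47, 59 and 106 in WT, rose by 0.85 (SE 0.25, adjusted p = 0.041 by edgeR) on the log2 scale, but that call held in only 1 of the 6 fits that left out a library, the one without WT replicate 3, and its adjusted p was between 0.076 and 0.12 in the other 5. The remaining riser was OS06G0626050, described with HAK10. The 1 gene that did not pass was HAK22 (OS07G0102100), with a log2 fold change of 0.85 (SE 0.30, adjusted p = 0.073 by edgeR), and of 0.56 without WT replicate 2.

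Of the genes that fell besides HAK1, HAK13 (OS06G0671000) had 5, 2 and 0 reads in OsRUS1-OX, against 21, 15 and 20 in WT, a log2 fold change of -3.33 (SE 0.68, adjusted p = 0.011 by edgeR) that was -4.39 without OsRUS1-OX replicate 1 and -2.74 without OsRUS1-OX replicate 3. OS08G0510300 and OS09G0448200, both described as similar to Arabidopsis HAK5, the inducible root uptake transporter of that species, had log2 fold changes of -1.59 (SE 0.33, adjusted p = 0.012 by edgeR) and -0.99 (SE 0.25, adjusted p = 0.025 by edgeR). The call of OS08G0510300 was lost without OsRUS1-OX replicate 2 (adjusted p = 0.053 by edgeR), and that of OS09G0448200 without OsRUS1-OX replicate 2 (0.076), OsRUS1-OX replicate 3 (0.095) or WT replicate 1 (0.075). With limma on log2(FPKM + 1), whose fold changes understate low genes, the calls of OS08G0510300 (adjusted p = 0.11), OS09G0448200 (0.053) and HAK19 (0.062) were lost as well. They were also lost with limma on log2(FPKM + 0.1), at adjusted p of 0.079, 0.056 and 0.067 in that order. Per length, HAK1 ranked number 2 of the 14 listed HAK genes in WT and number 9 in OsRUS1-OX.

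**Figure D4:**
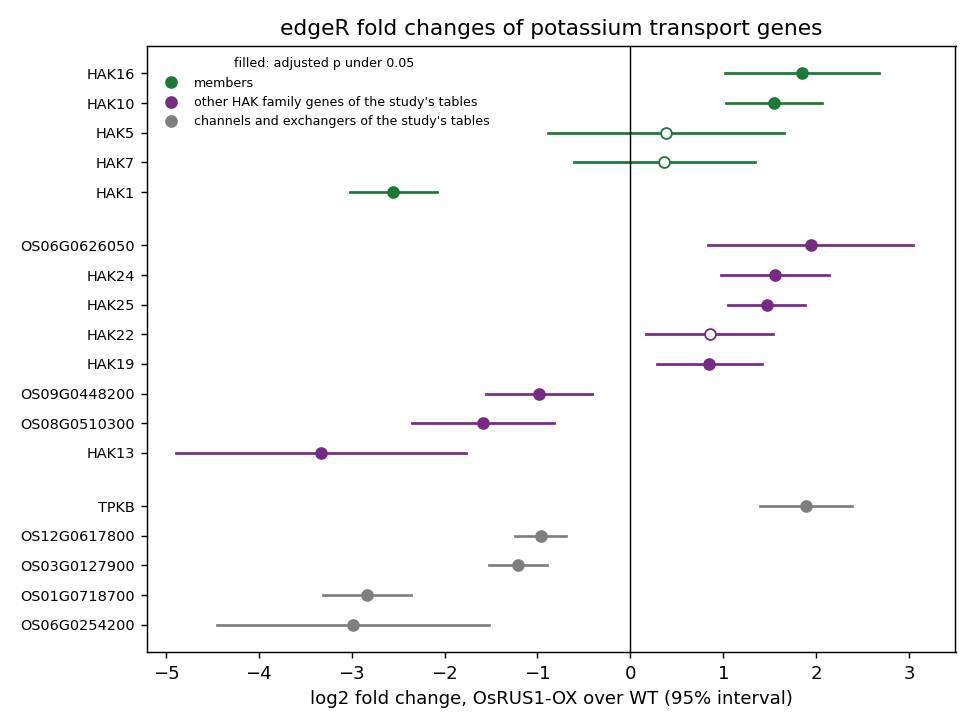
log2 fold change (OsRUS1-OX over WT) with its 95% interval for the 5 tested genes of the set (green), 8 other HAK family genes (purple) and 5 channels and exchangers (grey), filled where the adjusted p was under 0.05. HAK family genes lie on both sides of 0, from -3.33 for HAK13 to 1.94 for OS06G0626050.

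The same tables name 5 further potassium channels and exchangers, of which 1 rose and 4 fell, again on the samples used to choose them. Over all tested features 11.8% rose and 11.8% fell. TPKB (OS07G0108800), a two-pore channel of the vacuolar membrane, had 127, 138 and 117 reads in OsRUS1-OX, against 20, 30 and 30 in WT, a log2 fold change of 1.89 (SE 0.21, adjusted p = 0.0012 by edgeR). OS01G0718700, described as similar to Arabidopsis KAT3, a Shaker subunit that modulates other channels in that species, had 27, 32 and 35 reads in OsRUS1-OX, against 151, 162 and 205 in WT, a log2 fold change of -2.84 (SE 0.20, adjusted p = 0.00027 by edgeR). Its 95% interval (-3.31 to -2.37) overlapped that of HAK1. OS06G0254200, also described as similar to KAT3, had 3, 6 and 1 reads in OsRUS1-OX and 26, 24 and 12 in WT, a log2 fold change of -2.98 (SE 0.63, adjusted p = 0.013 by edgeR) that was -3.75 without OsRUS1-OX replicate 2 and lost its call without OsRUS1-OX replicate 3 (adjusted p = 0.052 by edgeR) and with limma on log2(FPKM + 1) (0.076). With limma on log2(FPKM + 0.1) the adjusted p of OS06G0254200 was 0.054. The other 2, named after their values were seen, were OS03G0127900 and OS12G0617800, described as similar to the Arabidopsis K+/H+ exchangers KEA5 and KEA3. Their log2 fold changes were -1.21 (adjusted p = 0.0012 by edgeR) and -0.97 (adjusted p = 0.0015 by edgeR).

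A phloem marker and a mesophyll marker also rose in OsRUS1-OX. SUT1 (OS03G0170900), the sucrose carrier of phloem companion cells, had 135, 208 and 189 FPKM in OsRUS1-OX and 28.1, 90.6 and 47.7 FPKM in WT, a log2 fold change of 1.60 (SE 0.40, adjusted p = 0.023 by edgeR). WT replicate 2 was the highest WT library for SUT1, whose fold change is not given without it. CAB2R, the mesophyll gene above, had a log2 fold change of 1.03 (SE 0.18, adjusted p = 0.0059 by edgeR). CAB2R is of the light-harvesting family that the paper reports as raised in this line. Other markers planned for these and further cell types are not reported here. The part of SUT1 and CAB2R in the values of the potassium genes was not tested.

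**Figure D5:**
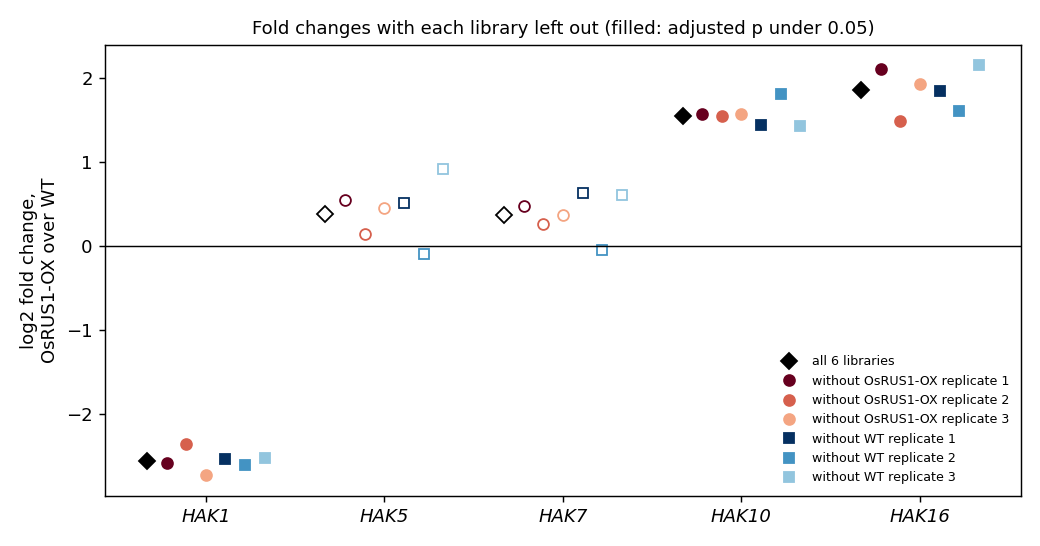
log2 fold change (OsRUS1-OX over WT) of the 5 tested genes with all 6 libraries (diamonds) and with each library left out (circles for OsRUS1-OX, squares for WT), filled where the adjusted p was under 0.05. HAK1, HAK10 and HAK16 keep sign and call in all 6 fits, and HAK5 and HAK7 fall to -0.10 and -0.05 without WT replicate 2.

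The genes with the most similar pattern were looked up among 19356 RAP genes by Pearson's r of log2 normalized CPM over the 6 libraries, given as a description. For HAK1 these were OS09G0554000 (r = 0.999) and OS03G0176700 (r = 0.998), with log2 fold changes of -1.41 and -1.15, and 838 genes had r above 0.95. For HAK10 they were OS05G0104900 (r = 0.999) and OS04G0635500 (r = 0.998), of which OS04G0635500, annotated as a wound-induced protein, had a log2 fold change of 3.14. HAK16 was most like OS08G0516000 (r = 0.998) and OS01G0139200 (r = 0.996). HAK5 was most like OS05G0155601 (r = 0.997) and OS05G0581800 (r = 0.996), and HAK7 most like OS03G0308500 and OS05G0580500 (r = 0.998 for both). Genes with r above 0.95 numbered 676 for HAK10, 609 for HAK16, 284 for HAK5 and 273 for HAK7, so such values are common. For HAK5 and HAK7 the pattern includes the low WT replicate 2. All points share the same 6 libraries in 2 genotypes.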

How the data were processed

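RNA-seq was done on flag leaves of OsRUS1-OX and WT rice. The authors aligned paired reads to the rice genome with TopHat2 2.0.12 and counted them per gene with HTSeq 0.6.1, and deposited raw counts and FPKM values that they computed from counts and gene lengths. The settings for strand and for overlapping genes are not stated, and the library kit named does not mark strand. Columns were matched to samples through genotype and replicate number, and the number of per-sample columns not used was 0. The test was run on the counts in R 4.3.3 with edgeR 4.0.16 (TMM scaling, filter on low counts by genotype, quasi-likelihood test, Benjamini-Hochberg adjusted p under 0.05 over 19694 features), after the script was tested on simulated data. FPKM levels were not tested. The replicates were collected separately, and their counts differed by more than sampling noise. The alternatives were leaving out each library, a replicate block, other scalings and filters, DESeq2 1.42.0, and limma 3.58.1 on the log2 of FPKM with pseudocounts of 1 and 0.1, run on features that reached an FPKM of 1. The sum of both HAK10 rows was added after seeing the data. The genes and lists were chosen with earlier results of these data known. The list of further potassium genes came from the study's tables, since the RefSeq table (assembly ASM3414082v1), which holds 25 genes with a HAK symbol and matched 6 of the 7 genes by symbol, does not carry the identifiers of the counts. Named were the 7 genes, list members past the threshold (for channels and exchangers the 3 with the largest change), and the 2 most similar genes of each tested gene. HAK22 and the 2 KEA-like exchangers fall outside this rule and were named after their values were seen. In that table HAK5 lies within the span of another gene and HAK10 overlaps one, so reads may be shared there. The study's own fold changes and p-values are not given as results here. Its tables of changed genes, which rest on them, helped to choose the further potassium genes.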

Additional observations from a re-analysis of the deposited data

How the results depend on the processing

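HAK1, HAK10 and HAK16 kept their direction and their call in every alternative, with log2 fold changes of -2.72 to -2.22 for HAK1, 1.34 to 1.81 for HAK10 and 1.48 to 2.15 for HAK16. HAK5 and HAK7 were called in none, and their signs turned without WT replicate 2, to -0.10 and -0.049 (-0.10 to 0.91 and -0.049 to 0.63 over the fits that left out a library). Of the listed HAK genes, partly chosen by the study on these samples, 4 of 13 tested were lower in the main fit, against 11.8% of all tested features. The count was 2 to 4 with a library left out (2 without OsRUS1-OX replicate 2). It was 1 of 12 with limma at either pseudocount, where HAK13 was below the FPKM minimum. The count of these genes called higher was 6 of 13 in the main fit, against 11.8% of all tested features. It was 4 to 6 with a library left out and 5 to 7 in the other alternatives. The count of 4 came without OsRUS1-OX replicate 2, OsRUS1-OX replicate 3 or WT replicate 1. Over all features, 1354 to 2602 were higher and 1045 to 2617 lower with a library left out, against 2328 and 2316 with all. The counts were 1354 and 1045 without OsRUS1-OX replicate 3, and 1404 and 1120 without OsRUS1-OX replicate 2. limma called 1481 (pseudocount 0.1) and 1487 (pseudocount 1) lower. The cause of these shifts was not tested. HAK22 was called with DESeq2 (adjusted p = 0.036), with no filter on low counts in edgeR (0.038) and with the replicate block (0.019). Correlations of same-numbered deviations were 0.129, -0.0982 and 0.116, within the range of -0.253 to 0.183 for libraries with different numbers. With so few libraries these values cannot decide whether the samples were collected in pairs. With the replicate block, edgeR called 2071 features higher and 1942 lower and gave -2.58 for HAK1, 1.57 for HAK10, 1.82 for HAK16, 0.51 for HAK5 and 0.52 for HAK7, and HAK19 (adjusted p = 0.051) and OS06G0626050 (0.050) lost their calls, as the only potassium genes that did. Depth limits HAK21 and AKT1, whose reads reached at most 12 in a library.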
